A study of Homo sapiens with 6 samples.

Results

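Autophagy and lysosome genes were examined in K562, an established human cell line grown from the blast phase of a chronic myeloid leukaemia, with erythroid features and an active BCR-ABL1 kinase. The list of 42 genes was set by symbol, and each of the 42 was present among the 35615 gene symbols of the count table. The mimic group had received 500 pmol of the synthetic strand hsa-miR-92a-1-5p per 5 M cells by nucleofection, and the control group a negative-control mimic at the same amount, named scramble in the labels. All cultures of both groups were exposed to imatinib, an inhibitor of BCR-ABL1, at 1 µM, added 4 h after transfection and left for 24 h until RNA extraction. Each group held 3 libraries labelled as biological replicates, so p-values measure the spread between these cultures of 1 cell line. Cultures without imatinib were not analysed here, and neither was the level of the mimic itself.

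Macroautophagy encloses cytoplasm in a double membrane that then fuses with the lysosome. The ULK1 complex and a phosphatidylinositol 3-kinase complex start the membrane, ubiquitin-like conjugation attaches proteins of the LC3 and GABARAP families to it, and the lysosome, acidified by a proton pump called the V-ATPase, degrades the contents with cathepsins and glycosidases. Many lysosomal genes are activated by the transcription factors TFEB, TFE3 and MITF, which bind a CACGTG-centred element in their promoters. A microRNA lowers transcripts mainly by pairing its seed, bases 2 to 8, with their 3′ untranslated region (UTR).

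The sequences shown first are those on which a direct match between the mimic and the genes can be read. The mature strand (RefSeq, GRCh38.p14, chr13:91351324-91351346, plus strand) has its seed in capitals:
hsa-miR-92a-1-5p: aGGUUGGGaucgguugcaaugcu
Matches were sought on the transcript strand of the longest 3′ UTR of each gene (GENCODE v29, GRCh38) as CCCAACC (7mer-m8), CCAACCA (7mer-A1) and CCCAACCA (8mer, which contains both 7mers). Of the 41 tested members 6 held at least 1 match (14.6%), against 16.9% of the 12888 genes tested whose 3′ UTR is annotated. These were ATP6AP1, TFE3, ATG7, LAMP2, CTSC and HEXA. The windows of the ATP6AP1 and TFE3 transcripts, which were lower with the mimic, are set beside both windows of HEXA, which was not called, with the match in capitals:
ATP6AP1 7mer-A1, chrX:154436109-154436115, plus strand: tctgcgtagatgctagaCCAACCAgct
TFE3 7mer-m8, chrX:49028945-49028951, minus strand: ctgagaatctaggccacCCCAACCtct
HEXA 8mer, chr15:72342716-72342723, minus strand: cttccatccccctcctCCCAACCAttt
HEXA 7mer-m8, chr15:72343571-72343577, minus strand: gtggggagggctccagaCCCAACCtgg
HEXA, a subunit of the enzyme that degrades GM2 ganglioside, thus held the one 8mer among the members and a second match. Its level was 87.1, 89.8 and 87.6 CPM (counts relative to a TMM-scaled library total of 1 M) in control libraries 1, 2 and 3 and 78.9, 86.5 and 86.4 CPM in mimic libraries 1, 2 and 3. The groups did not overlap, but the log2 fold change was -0.05 ± 0.09 (SE, adjusted p = 0.86 by edgeR's quasi-likelihood test). The 6 members with a match had a median log2 fold change of -0.17, with 5 of 6 below 0, and the 35 without one a median of 0.05. Over all tested genes the medians were -0.13 with a match and 0.01 without, and 1471 of the 2173 with a match were below 0. A match is a description of letters and not a tested site, and the UTR forms used by K562 cells were not measured.

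Library totals were 24.8 to 26.0 M counts in 5 libraries and 0.704 M in mimic library 1. The median count of the members was 1561 to 1838 in the 5 deep libraries and 44.5 in mimic library 1, where 14.3% of members had fewer than 10 counts. In that library 3 counts stand for 4.08 CPM, and in the others for 0.115 to 0.125 CPM. Erythroid markers were present throughout, with GATA1 at 171 to 222 CPM and HBG2 at 2467 to 4075 CPM, whereas the B cell marker MS4A1 was listed at 0 in all libraries and the monocyte markers CSF1R and CD14 stayed at or below 1.36 CPM, although LYZ lay at 10.2 to 57.9 CPM. The labels call the cells myeloblasts, and the erythroid markers are those of K562 cells.

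The comparison asked which members differed between mimic and control cultures. Without regard to replicate number, 1 of the 41 tested members fell, ATP6AP1, and none rose (quasi-likelihood test of edgeR, p adjusted over all genes by Benjamini-Hochberg, threshold 0.05). Among all 14543 tested genes 0.976% were lower and 0.433% higher, or 1.41% in either direction. At an unadjusted p under 0.05 there were 5 lower and 8 higher members, against 13.5% of all tested genes in either direction. DESeq2 called 1 member lower and 1 higher, against 2.33% and 1.31% of the genes it tested, 3.65% in either direction. With the replicate number as a block 4 members fell (ATP6AP1, ATG13, TFE3 and ATG5) and 4 rose (LAMP1, MCOLN1, ATG16L1 and GUSB), which is 19.5% of the members tested, against 6.7% lower and 4.57% higher or 11.3% in either direction over all genes. The tested members were more deeply covered than the typical gene, with median counts per library of 1574 to 1907 in the deep libraries against 556 to 613 for all tested genes, and the part of depth in this share was not tested. The list, like that of the related genes below, was also chosen with earlier results of these data known, so the share only describes it. Of the 4 members that fell with the block 2 held a seed match, ATP6AP1 and TFE3, and of the 4 that rose 0 did. Among all tested genes with an annotated 3′ UTR, 398 of the 933 that fell with the block held a match. Of the 623 that rose 42 held one. The median log2 fold change of the members was 0.04 and that of all tested genes -0.01, with 20 members below 0 and 21 above, against 51.7% and 48.3% of all tested genes. The groups did not overlap for 5 lower (12.2%) and 8 higher members (19.5%), against 11.5% and 9.73% of all tested genes.

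**Figure D1:**
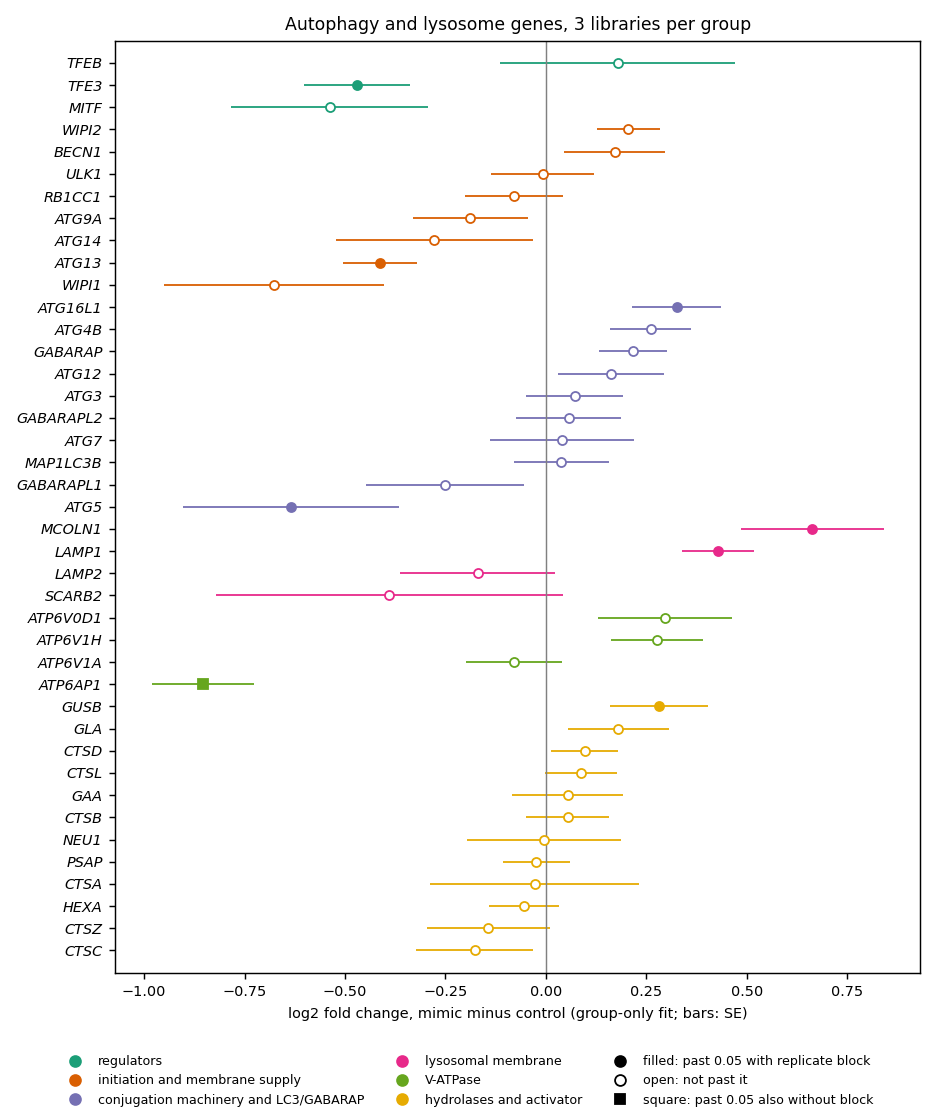
Log2 fold change (mimic minus control, horizontal axis) of the 41 tested members, grouped by role on the vertical axis, from the fit without the replicate block. Bars are standard errors, and filled symbols mark genes with an adjusted p under 0.05 with the block. The hydrolases lie between -0.18 and 0.28, while ATP6AP1 lies at -0.85 and MCOLN1 at 0.66.

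Among the 3 regulators, TFE3 was lower with the mimic in the blocked fit. TFE3 had 41.2, 42.5 and 34.2 CPM in control libraries 1, 2 and 3 and 27.2, 30.0 and 27.1 CPM in mimic libraries 1, 2 and 3. Each mimic library lay below each control library. The log2 fold change was -0.47 ± 0.13 (SE, adjusted p = 0.16 by edgeR) without the block and -0.44 ± 0.12 (adjusted p = 0.019) with it. That call was lost without the replicate 1 libraries (adjusted p = 0.063) or the replicate 2 libraries (0.26) and held without replicate 3. MITF, the melanocyte and mast cell relative of TFE3, ranged from 26.8 to 49.6 CPM in the control and from 21.6 to 30.9 CPM in the mimic libraries, and the groups overlapped. Its log2 difference within replicate numbers was -0.46, 0.21 and -1.20, and it did not pass (edgeR adjusted p = 0.39, and 0.11 with the block). The value turned on which replicate number was kept: the blocked fit called MITF without replicate 2 (log2 fold change -1.02, edgeR adjusted p = 3.8e-05), but not without replicate 1 (-0.49, adjusted p = 0.22) or replicate 3 (0.05, adjusted p = 0.97). TFEB was sparse, with 87, 80 and 92 counts in control libraries 1, 2 and 3 and 1, 113 and 103 counts in mimic libraries 1, 2 and 3. Its level of 3.16 to 4.31 CPM in the deep libraries is close to that of 3 counts in mimic library 1, so its single count there cannot show a difference (log2 fold change 0.18 ± 0.29, SE). 

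The genes that start and supply the autophagosome membrane gave 1 call among 8 tested, ATG13, a subunit of the ULK1 kinase complex. ATG13 had 116, 111 and 125 CPM in control libraries 1, 2 and 3 and 88.4, 84.9 and 91.3 CPM in mimic libraries 1, 2 and 3. The groups did not overlap, and the differences within replicate numbers were close, at -0.39, -0.39 and -0.46 on the log2 scale. The log2 fold change was -0.41 ± 0.09 (SE), with an adjusted p of 0.079 in edgeR without the block and 0.0032 with it. It was 0.061 when the block was used without the replicate 2 libraries. The annotated ATG13 locus (chromosome 11, 46617527 to 46674818) overlaps the oppositely oriented HARBI1 by 383 bases, and the library strand is not given in the sources used here. ULK1 itself, the kinase, had a log2 fold change of -0.01 ± 0.13 (SE), and RB1CC1, the complex's large scaffold, -0.08 ± 0.12. ULK2, the other ULK kinase, had 1 to 8 counts per library and was not tested. WIPI2, which links the nascent membrane to conjugation, was 185 to 191 CPM in control and 211 to 225 CPM in mimic libraries without overlap, a log2 fold change of 0.20 ± 0.08 that did not pass (edgeR adjusted p = 0.30; 0.11 with the block). Its paralogue WIPI1 had 5.18, 5.37 and 7.40 CPM in control libraries 1, 2 and 3 and 5.44, 3.24 and 3.89 CPM in mimic libraries 1, 2 and 3. The first of these mimic values rests on 4 counts, and the groups overlapped (log2 fold change -0.68 ± 0.27, edgeR adjusted p = 0.33). With the block the log2 fold change was -0.75 ± 0.24, just short of the threshold (edgeR adjusted p = 0.0504). The blocked fit called WIPI1 without the replicate 1 libraries, which hold the 4 counts (-0.82, edgeR adjusted p = 0.025), but not without replicate 2 (0.39) or 3 (0.56). ATG9A, the transmembrane lipid scramblase of autophagy, had a log2 fold change of -0.19 ± 0.14 and was called lower in the blocked fit without replicate 3 alone (-0.26, edgeR adjusted p = 0.012). The remaining members of this role, BECN1 and ATG14 of the phosphatidylinositol 3-kinase complex, did not pass in either fit.

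In the conjugation machinery ATG16L1 rose and ATG5 fell in the blocked fit. Their proteins work in 1 complex with ATG12 that places LC3 on membranes. ATG16L1 had 53.4, 50.7 and 54.1 CPM in control libraries 1, 2 and 3 and 73.5, 59.1 and 69.3 CPM in mimic libraries 1, 2 and 3. Its mimic libraries all lay above the control libraries, with a log2 fold change of 0.33 ± 0.11 (SE, edgeR adjusted p = 0.24; 0.041 with the block). This call was lost when any replicate number was left out of the blocked fit (adjusted p = 0.077 to 0.17). ATG5 had 23.9, 27.5 and 28.7 CPM in control libraries 1, 2 and 3 and 23.1, 21.9 and 10.7 CPM in mimic libraries 1, 2 and 3. Mimic library 3 stood apart, and the differences within replicate numbers were -0.05, -0.33 and -1.41. The log2 fold change was -0.63 ± 0.27 (edgeR adjusted p = 0.35; 0.013 with the block), and the blocked call was lost without the replicate 3 libraries (adjusted p = 0.51). The ATG5 locus overlaps the oppositely oriented transcript AL022067.1, whose count was 52.3% of that of ATG5. ATG12, the third protein of the complex, lay at 29.4 to 35.2 CPM in control and 32.7 to 40.8 CPM in mimic libraries and did not pass.

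The ubiquitin-like proteins that end up on the membrane did not pass in either fit. GABARAP had 76.7, 81.3 and 79.9 CPM in control libraries 1, 2 and 3 and 91.2, 91.8 and 93.0 CPM in mimic libraries 1, 2 and 3. These groups did not overlap, and the log2 fold change was 0.22 ± 0.08 (SE, edgeR adjusted p = 0.32; 0.15 with the block). MAP1LC3B, which encodes the LC3B protein used as a marker of autophagosomes, had a mean of 120 ± 10.2 CPM in control and 121 ± 16.9 CPM in mimic libraries (SD, n = 3), a log2 fold change of 0.04 ± 0.12. Its near-identical copy MAP1LC3B2 had at most 13 counts per library. Over the role 8 of 10 members were above 0, with a median log2 fold change of 0.06.

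**Figure D2:**
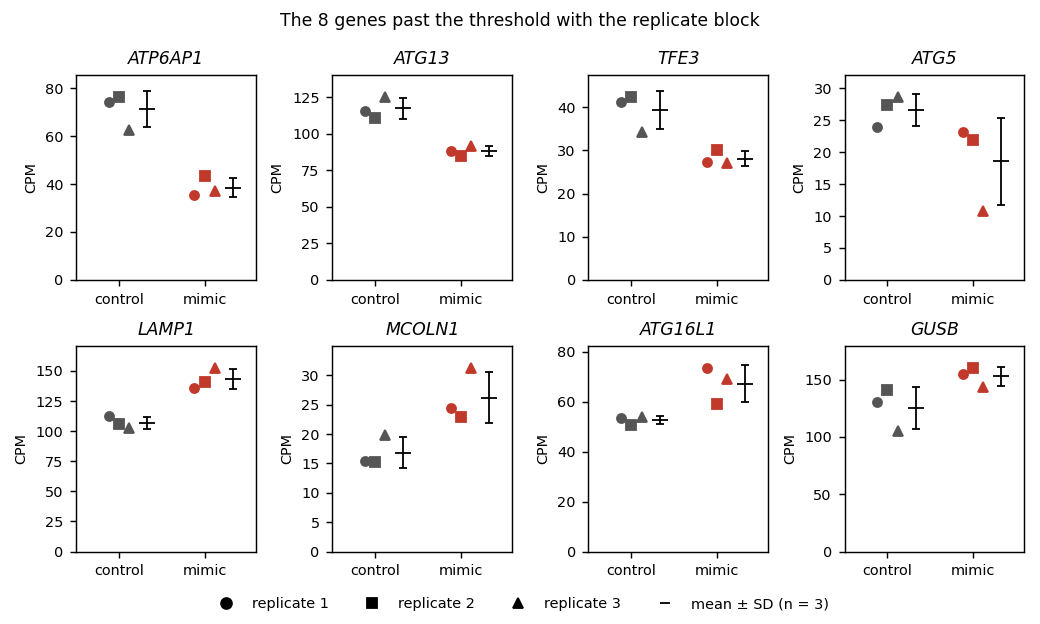
TMM-scaled CPM (vertical axes, from 0) of the 8 members past the threshold in the blocked fit, in control and mimic libraries (horizontal axes), with 1 symbol per replicate number and the mean ± SD beside them. In each panel the 3 mimic libraries lie on 1 side of the 3 control libraries, and ATG5 shows 1 low library, mimic 3, at 10.7 CPM.

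Among lysosomal membrane proteins LAMP1 and MCOLN1 rose with the mimic in the blocked fit and LAMP2 and SCARB2 did not pass. LAMP1, an abundant glycoprotein of the lysosomal membrane (chromosome 13, 113297241 to 113323672, GRCh38), had 113, 106 and 102 CPM in control libraries 1, 2 and 3 and 136, 141 and 152 CPM in mimic libraries 1, 2 and 3. All mimic libraries were higher, with a log2 fold change of 0.43 ± 0.09 (SE, edgeR adjusted p = 0.065). With the block it was 0.44 ± 0.09 (adjusted p = 0.0020, and at most 0.040 with any replicate number left out), and DESeq2 called it without a block (adjusted p = 0.032). MCOLN1, the lysosomal calcium channel TRPML1 (chromosome 19, 7522626 to 7534009), had 15.5, 15.2 and 19.8 CPM in control libraries 1, 2 and 3 and 24.5, 22.9 and 31.2 CPM in mimic libraries 1, 2 and 3. The replicate 3 library was the highest in each group, and the differences within replicate numbers were 0.66, 0.59 and 0.65. The first of these rests on 18 counts in mimic library 1, so their closeness carries little weight. The log2 fold change was 0.66 ± 0.18 (edgeR adjusted p = 0.14) and 0.63 ± 0.14 with the block (adjusted p = 0.0041, at most 0.046 with a replicate number left out).

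LAMP2, the paralogue needed for fusion of autophagosomes, had 141, 134 and 97.4 CPM in control libraries 1, 2 and 3 and 121, 130 and 84.8 CPM in mimic libraries 1, 2 and 3. Its replicate 3 libraries were the lowest in both groups, and the log2 fold change was -0.17 ± 0.19 (SE, edgeR adjusted p = 0.79). SCARB2, the lysosomal integral membrane protein LIMP-2, had 35.5, 34.6 and 34.4 CPM in control libraries 1, 2 and 3 and 37.0 and 25.6 CPM in mimic libraries 2 and 3, but it was listed at 0 in mimic library 1. The mean level of the other 5 libraries would correspond to 24.6 counts there, and 5 of the 6761 tested genes with a level worth at least 20 counts were listed at 0 in that library. Its log2 fold change of -0.39 ± 0.43 was not called, and without mimic library 1 the adjusted p was 0.75. The blocked fit without replicate 2, which keeps the 0, called it lower (-0.88, edgeR adjusted p = 0.0016).

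LAMP1 and MCOLN1 both carry the CACGTG letters near their annotated start, and their promoters are shown with that of GAA, the acid alpha-glucosidase, for contrast. Each run covers 250 bases before to 50 after the start (RefSeq, GRCh38.p14, read in the direction of the gene). Capitals mark CACGTG together with a T directly before it or an A directly after it:
LAMP1, chr13:113296989-113297288, plus strand: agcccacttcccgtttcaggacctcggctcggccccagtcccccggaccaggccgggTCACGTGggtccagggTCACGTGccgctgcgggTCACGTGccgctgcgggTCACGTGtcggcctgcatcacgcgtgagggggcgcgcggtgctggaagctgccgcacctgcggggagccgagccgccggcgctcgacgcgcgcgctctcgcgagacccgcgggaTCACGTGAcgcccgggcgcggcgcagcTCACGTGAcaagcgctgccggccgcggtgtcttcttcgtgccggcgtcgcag
MCOLN1, chr19:7522374-7522673, plus strand: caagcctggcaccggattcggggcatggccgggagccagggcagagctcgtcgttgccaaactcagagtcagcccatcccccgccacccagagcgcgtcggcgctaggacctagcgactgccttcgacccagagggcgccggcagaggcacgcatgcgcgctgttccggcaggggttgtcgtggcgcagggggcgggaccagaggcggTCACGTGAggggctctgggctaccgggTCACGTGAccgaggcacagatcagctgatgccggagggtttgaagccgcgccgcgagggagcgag
GAA, chr17:80101331-80101630, plus strand: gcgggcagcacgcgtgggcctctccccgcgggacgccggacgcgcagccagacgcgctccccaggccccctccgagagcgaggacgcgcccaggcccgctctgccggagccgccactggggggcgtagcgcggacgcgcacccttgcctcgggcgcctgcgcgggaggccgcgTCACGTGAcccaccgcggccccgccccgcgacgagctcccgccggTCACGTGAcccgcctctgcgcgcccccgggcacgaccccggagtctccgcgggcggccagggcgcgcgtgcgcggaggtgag
The LAMP1 window held CACGTG 6 times, and the windows of MCOLN1 and GAA 2 times each. Promoters were found for 35 of the 42 members. CACGTG, which reads the same on both strands, was in 9 of the 35 (25.7%), against 7.43% of 27305 promoters of the same length and 10.2% of those of tested genes. TCACGTGA was in 6 members (17.1%), against 1.04% of all promoters and 1.89% of those of tested genes. TCACGTGA contains CACGTG and also reads the same on both strands. Regulation through this element is part of why these genes are known as a group, so the shares describe the list.

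The 6 members with TCACGTGA were ATG3, LAMP1, CTSA, GAA, MCOLN1 and ATP6V0D1. Their median log2 fold change was 0.18, with 5 of 6 above 0, and that of the 28 members with a promoter but without it 0.02. Over promoters of tested genes the medians were 0.03 for the 194 with it and -0.01 for the rest, and 102 of the 194 were above 0. Within the 6 the values differed widely, since GAA, with TCACGTGA at both its CACGTG positions, had a log2 fold change of 0.05 ± 0.14 (SE, edgeR adjusted p = 0.93) and ATG3, the enzyme that passes LC3 to lipid, 0.07 ± 0.12. ATP6V0D1, with 1 copy, had 0.30 ± 0.17 (adjusted p = 0.51; 0.064 with the block).

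Of the V-ATPase genes ATP6AP1 fell, the one member called both with and without the block. It encodes an accessory subunit of the pump that is needed for its assembly and lies on chromosome X (154428632 to 154436516, GRCh38). ATP6AP1 had 74.4, 76.6 and 62.6 CPM in control libraries 1, 2 and 3 and 35.4, 43.2 and 37.1 CPM in mimic libraries 1, 2 and 3. The highest mimic library lay well under the lowest control library, and the mean fell from 71.2 ± 7.54 to 38.6 ± 4.10 CPM (SD, n = 3). The log2 fold change was -0.85 ± 0.13 (SE, edgeR adjusted p = 0.017), and -0.83 ± 0.10 with the block (adjusted p = 1.6e-05). The differences within replicate numbers were -1.07, -0.83 and -0.75. Without the block the call was lost without control 1 (adjusted p = 0.098), control 2 (0.10), mimic 1 (0.082) or mimic 3 (0.059), and it held without control 3 (0.010) or mimic 2 (0.049). In the blocked fit the call held with each replicate number left out (edgeR adjusted p at most 8.0e-04). Without replicate 3 this adjusted p was 4.3e-15, smaller than with all libraries. These fits keep few libraries, so they are a weak check. Of the members in the pump's ATP-driven domain, ATP6V1A, the ATP-binding subunit, had a log2 fold change of -0.08 ± 0.12 and ATP6V1H, a regulatory subunit, 0.28 ± 0.12. Neither passed in either fit, although all mimic libraries were higher for ATP6V1H (edgeR adjusted p = 0.35; 0.11 with the block).

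The lysosomal hydrolases had the smallest median size of change of the 6 roles. Of 12 members (cathepsins, glycosidases and the sphingolipid activator precursor PSAP) 1 passed with the block, GUSB, and none without it. Their log2 fold changes ran from -0.18 to 0.28 with a median size of 0.07, against 0.18 over all tested genes. They were also among the better sequenced members, with a median of 97 counts in mimic library 1 against 16 for all tested genes. PSAP, whose product is cut into the saposins that assist sphingolipid breakdown, had a mean of 783 ± 40.8 CPM in control and 769 ± 37.1 CPM in mimic libraries (SD, n = 3) and a log2 fold change of -0.02 ± 0.08 (SE). The cysteine protease cathepsin B, CTSB, had 218 ± 7.49 and 223 ± 29.1 CPM, a log2 fold change of 0.05 ± 0.10. GUSB, the beta-glucuronidase, had 131, 141 and 105 CPM in control libraries 1, 2 and 3 and 155, 160 and 144 CPM in mimic libraries 1, 2 and 3. Each mimic library lay above each control library, with a log2 fold change of 0.28 ± 0.12 (edgeR adjusted p = 0.37; 0.028 with the block), and the blocked call was lost when any replicate number was left out (adjusted p = 0.078 to 0.13). GUSB has 10 annotated pseudogenes by name, so reads may be shared with them and its value is uncertain.

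**Figure D3:**
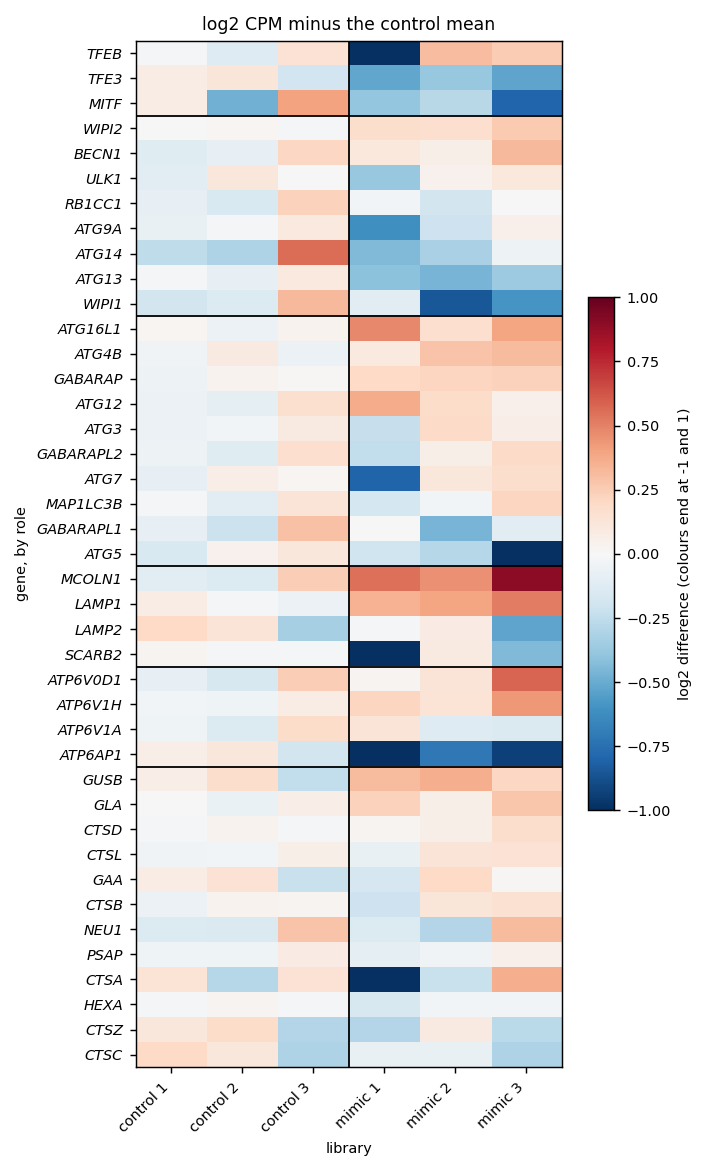
Log2 CPM of each tested member (rows, by role) in each library (columns) minus its mean over the 3 control libraries. Colours end at -1 and 1, so SCARB2 in mimic 1, listed at 0, lies beyond the scale. ATP6AP1 is low in all 3 mimic libraries, and TFEB, ATG7, CTSA and SCARB2 are low in mimic 1, where they had 0 to 9 counts.

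The replicate 3 libraries stood apart for some members, about as often as for all tested genes. In 12 of the 41 tested members (29.3%) both replicate 3 libraries lay beyond the other 4, against 30.6% of all tested genes. They were higher for 10 members, including MAP1LC3B, BECN1, PSAP and NEU1, and lower for LAMP2 and CTSC. NEU1, a sialidase, had 69.6 and 70.9 CPM in control 3 and mimic 3 and 46.4 to 51.7 CPM in the other libraries. Against the control mean, the median member differed by -0.12, 0.06 and 0.11 on the log2 scale in mimic libraries 1, 2 and 3.

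The other genes of the pathway were taken from a list of 103 that covers cargo receptors, fusion factors, further hydrolases, pump subunits and the mTORC1 kinase with its lysosomal regulators. Of the 102 tested 1 rose, RAB7A, and none fell without the block, while 5 were lower and 11 higher at an unadjusted p under 0.05 and DESeq2 called 1 lower and 3 higher. Over all tested genes 13.5% had an unadjusted p under 0.05, and DESeq2 called 3.65%. With the block 6 of the list fell and 10 rose, 15.7% of those tested, against 6.7% lower and 4.57% higher or 11.3% in either direction over all genes. RAB7A, the small GTPase of late endosomes and lysosomes, had 113, 117 and 109 CPM in control libraries 1, 2 and 3 and 180, 196 and 214 CPM in mimic libraries 1, 2 and 3. The groups were far apart, with a log2 fold change of 0.81 ± 0.09 (SE, edgeR adjusted p = 0.0060, and at most 0.039 with any 1 library left out).

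Of the 16 called with the block, 7 of the 8 with the lowest p-values are given. TPP1, a lysosomal tripeptidyl peptidase, had 245, 242 and 160 CPM in control libraries 1, 2 and 3 and 137, 130 and 78.2 CPM in mimic libraries 1, 2 and 3. The replicate 3 library was the lowest in each group, and the differences within replicate numbers were -0.83, -0.90 and -1.03. Its log2 fold change was -0.95 ± 0.24 (edgeR adjusted p = 0.11) without and -0.94 ± 0.08 (2.1e-07) with the block. The TPP1 3′ UTR held 3 matches to the mimic's seed, of which the one nearest the stop codon is:
TPP1 7mer-m8, chr11:6614382-6614388, minus strand: gtgagcttgacttgactCCCAACCcta
CALCOCO2, the cargo receptor NDP52, fell by 0.32 ± 0.09 in the blocked fit and held a 7mer-m8 at base 5 of its 3′ UTR. PRKAA1, a catalytic subunit of the energy sensor AMPK, fell by 0.41 ± 0.10 there. RPTOR, the mTORC1 subunit raptor, rose by 0.57 ± 0.11 and FLCN, a GTPase-activating protein for the lysosomal Rag proteins, by 0.39 ± 0.11. PPT1, a palmitoyl-protein thioesterase, rose by 0.33 ± 0.09. PPT1 and FLCN overlap more abundantly counted genes on the opposite strand, CAP1 and MPRIP. With 1 replicate number left out of the blocked fit, RAB7A, TPP1, RPTOR and PRKAA1 passed in all 3 fits. CALCOCO2 missed without replicate 1 (adjusted p = 0.083) or 2 (0.16), PPT1 without 1 (0.12) or 2 (0.075) and FLCN without 1 (0.086) or 2 (0.057).

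**Figure D4:**
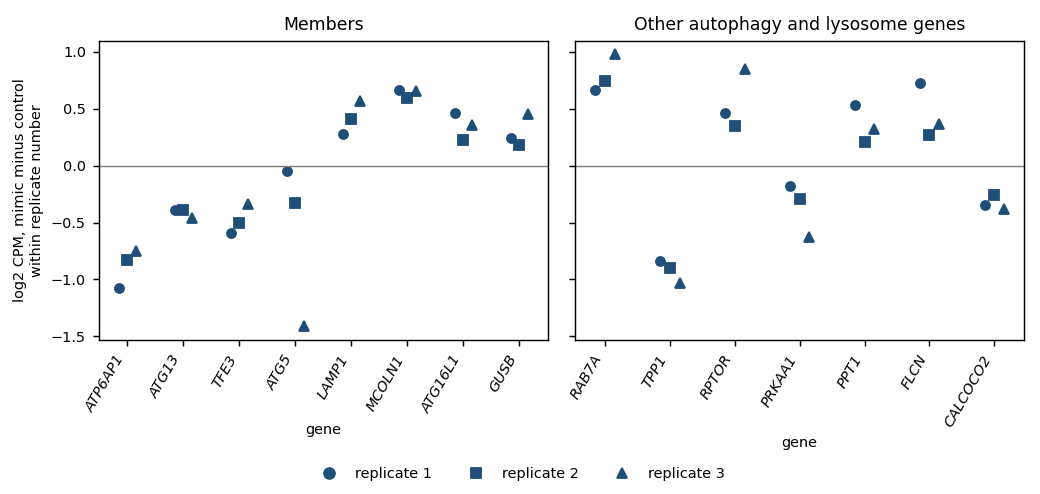
Log2 CPM of the mimic library minus that of the control library with the same replicate number (vertical axis, 1 symbol per number) for the 8 members and the 7 other pathway genes named from the blocked fit (horizontal axes). The symbols of ATG13 and MCOLN1 lie close together, while those of ATG5 run from -0.05 to -1.41.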

How the data were processed

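RNA of 6 K562 cultures was sequenced from both ends, at a mean coverage of 62 M per the labels' protocols. The authors ran kallisto, per the labels' protocols, and deposited its estimated counts for each gene symbol as unscaled whole numbers. The submitters' processing notes name GRCh38. The kallisto version, the transcript annotation, the strand and the step to genes are not given in the sources used here.

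Counts were filtered with filterByExpr (14543 genes kept), scaled by TMM and tested on group alone with edgeR 4.0.16 in R 4.3.3 (quasi-likelihood F-test, Benjamini-Hochberg adjustment over all tested genes, threshold 0.05). The SE is the absolute log2 fold change over the root of F. Log2 values per library used a prior count of 2. Alternatives were the replicate block, DESeq2 1.42.0, RLE scaling, total counts alone, no filter, each library left out and, added after the counts were seen, the block with 1 replicate number left out. Fits of this last kind keep 2 libraries per group, few to estimate the spread. Passing in them is a weak check of a call. The code of the group-only edgeR fit was tested on simulated data. The blocked fits were not part of that test.

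Pairing by replicate number was checked by correlating deviations from group means, which gave 0.15, 0.16 and 0.42 for the libraries numbered 1, 2 and 3 (14543 genes). Each exceeds 0.1, so blocked values are given, although the labels do not say that numbers mark shared batches. Among 4829 abundant genes (mean count of 1000 or more), control 1 correlated more with mimic 2 (0.52) than with mimic 1 (0.37), so pairing beyond replicate 3 is not shown.

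Members and lists were chosen with earlier results of these data known. Named with values are all members past the threshold in either fit, the regulators, the 2 most abundant of each role, the 3 largest fold changes, and the 8 related genes with the lowest blocked p-values, of which 1 is not reported here; HEXA, SCARB2, GAA, ATG3, ATG12, NEU1, ULK1, ULK2, RB1CC1, ATP6V1H and MAP1LC3B2 were added after their values were seen. Sequence work used Python 3.11.15, GENCODE v29 and RefSeq tables.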

Additional observations from a re-analysis of the deposited data

How the results depend on the processing

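Scaling by RLE or total counts alone left the counts of called members at 1 lower and 0 higher, with ATP6AP1 called each time. With the replicate block 4 members were lower and 4 higher, and 6 related genes were lower and 10 higher, against 0 and 1 without it. DESeq2 called 1 member higher, and 1 related gene lower and 3 higher. With no filter on low counts 1 related gene was lower and 2 were higher. With the block and 1 replicate number left out, 4 members were lower and 2 higher whichever number it was, but of the 8 called with all libraries 5, 4 and 5 passed without replicate 1, 2 and 3, the others being WIPI1, then MITF and SCARB2, then ATG9A. The related genes then numbered 3 lower and 4 higher, 3 lower and 3 higher, and 5 lower and 10 higher, while over all genes 8.37%, 5.7% and 9.76% were called in these 3 fits. With 1 library left out and no block, 0 to 1 members were lower and 0 higher, 0 to 1 related genes were lower and 1 higher, and the member median stayed within the spread between mimic libraries. That median ran from -0.044 without mimic 3 to 0.098 without mimic 1, so its sign was not fixed. The count of 0 lower members came without control 1, control 2, mimic 1 or mimic 3. The sign of the log2 fold change turned with a library left out for 13 members, 0 of them called in either fit. It ranged from -0.080 to 0.112 for MAP1LC3B, from -0.347 to 0.030 for LAMP2, from -0.063 to 0.021 for PSAP, from -0.142 to 0.012 for ATP6V1A, from -0.267 to 0.167 for NEU1, from -0.077 to 0.071 for ULK1, from -0.150 to 0.044 for RB1CC1, from -0.051 to 0.125 for GAA and from -0.017 to 0.130 for ATG3. The other 4 were GABARAPL2, ATG7, ATG14 and CTSA. The depth of mimic library 1 limits TFEB, WIPI1, ATG7, CTSA and SCARB2, which had 0 to 9 counts there.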

Other observations

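Among the related genes, 15 of the 75 with a promoter in the RefSeq table held CACGTG, and 6 held TCACGTGA. Of these 6 genes 5 had a log2 fold change above 0, with a median of 0.14, and the 69 without TCACGTGA had a median of 0.01. Over promoters of tested genes 102 of the 194 with TCACGTGA were above 0. A seed match was found in 13 of the 102 tested related genes with a 3′ UTR (12.7%), of which 10 were below 0, with a median of -0.18 against 0.03 for the 89 without one. Over all tested genes 1471 of the 2173 with a match were below 0. With the block, 2 of the 6 related genes that fell held a match, and 1 of the 10 that rose. Over all tested genes these were 398 of 933 and 42 of 623.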
